A study of Mus musculus with 21 samples.

Results

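The genes described here build and run the lysosome of N202 mammary tumor cells: the subunits of the vacuolar proton pump, the membrane proteins and hydrolases of the lysosome, and 2 genes of its control and its cargo, Tfeb and Sqstm1. The list held 47 genes, chosen by name and function with earlier results of these data known, so that shares of called members are descriptions. Of these, 46 had a probe set of their own among the 19937 genes of the array that did, and Atp6v0c had none under its symbol. Each gene was read from 1 probe set, the brightest on average over all arrays, and 3 members had more than 1 to choose from. Levels are log2 RMA values, so that a difference of 1 is a doubling. Of the 46, 41 passed the filter on dim probe sets and were tested, among 7300 tested genes in all. Ctsc, Ctss, Ctsz, Hexa and Tfeb were too dim in every group.

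N202.1A cells, a clone of a mouse mammary carcinoma line, carry a rat HER-2/neu transgene under the MMTV promoter from the FVB mice in which the tumors arose. They were marked with histone H2B fused to green fluorescent protein and grown on donor tissue from C57BL/6 mice in dorsal skinfold chambers of nude mice. The tumors were then put in culture for weeks, selected with G418 and expanded for further weeks. Cells were sorted on the green label and cultured again before RNA was taken. Each passage, numbered from P1, meant 21 days on tissue. Brain-adapted cells were read at P1, P2, P3 and P4 with 2 arrays each, and a second, separate adaptation to brain at P1 and P2 with 1 array each. Cells from bone marrow and lung were read at the same 4 passages and cells from breast tissue at P1, with 1 array each, and parental cells that never left culture (P0) with 2 arrays. The model is a single cell line. The second array of a brain pair is a further culture of the same adapted cells, so that p-values measure the spread between cultures and not between adaptations.

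The vacuolar proton pump turns the energy of ATP into a proton gradient across the lysosomal membrane. Its V1 sector, in the cytosol, splits ATP, and its V0 sector, in the membrane, passes the protons. The a subunit of V0 exists in isoforms from separate genes, which differ in where the pump is placed: Atp6v0a1 is best known from neurons and synaptic vesicles, Atp6v0a2 from the Golgi and endosomes, Tcirg1 (the a3 isoform) from osteoclast lysosomes, and Atp6v0a4 from the acid-secreting cells of the kidney. The acid interior activates the cathepsins and other hydrolases, and transcription factor EB (Tfeb) and its relatives raise many of these genes together through an E-box near their start sites.

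The medians of the 21 arrays lay between 4.98 and 5.15. The lower quartile of all values, a measure of the floor, was 3.77 to 4.09 on 5 arrays (the second arrays of brain P1 to P4 and lung P1) and 3.55 to 3.70 on the other 16. The epithelial genes Krt8, Krt18, Epcam and Cdh1 had group means above 10 throughout. Erbb2, the gene of the receptor whose rat form the cells carry, had a mean of 9.51 at brain P1, 9.94 at brain P2, 9.46 at brain P3, 9.88 at brain P4 and 10.70 at P0, and ranged from 9.01 (P1 of the second brain experiment) to 10.99 (lung P3) over the groups. In contrast, every listed marker of fibroblasts, endothelium, neurons, astrocytes, microglia, osteoclasts, fat and lung epithelium stayed below the filter limit of 7.33 in all groups. Of the oligodendrocyte markers Mog and Mag did too, while Mbp had group means of 6.66 to 7.50, with 7.36 at brain P2 and 7.24 at P0. Without those 5 arrays, which leaves 1 array for each brain passage and 1 residual degree of freedom, 0 members were called at brain P1 and 0 at P2 against P0. One call then remained between late and early brain passages (Atp6v0e2) and 2 between early brain and early bone marrow and lung (Cd68 and Atp6v0e2). Every member called in the full data kept its direction there. Cd68 and Atp6v0e2 were under the filter limit at P0, with means of 6.01 and 6.95. They passed it only through groups where they were higher, so their being tested is not independent of those rises.

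On brain tissue the members moved in both directions at the early passages. At P1, 4 of the 41 tested members rose and 2 fell, where 1.93% of all tested genes were called higher and 3.62% lower (limma, adjusted p under 0.05). At P2, 8 rose and 2 fell, against 4.9% and 8.37% of all tested genes. Among those that rose, Atp6v0a4 and Cd68 at P1 and Atp6v0e2 and Cd68 at P2 passed the filter only through groups where they were higher. The counts of rises are thus not independent of the filter. At P3 no member was called, with 0.192% of genes higher and 0.466% lower, and at P4 none was called, with 0.164% higher and 0.849% lower; at an unadjusted p under 0.05 the counts were 5 at P3 and 7 at P4. The 4 comparisons share the P0 arrays.

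The median change over the tested members was 0.19 at P1, 0.31 at P2, -0.21 at P3 and 0.14 at P4, where that over all tested genes was -0.02, -0.05, -0.10 and -0.19. The P0 pair itself differed on this scale. The member median lay at -0.15 on the first P0 array and 0.15 on the second, around their mean, while all tested genes lay at -0.03 and 0.03. The brain P1 arrays, at 0.31 and 0.12, overlapped the second P0 array, and brain P2, at 0.34 and 0.29, was the only brain passage with both arrays above both P0 arrays. A median over members that passed the filter is a description of those members, and 4 of them (Atp6v0a4, Atp6v0e2, Cd68 and Neu1) were under the filter limit at P0 and passed it only through groups where they were higher.

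**Figure D1:**
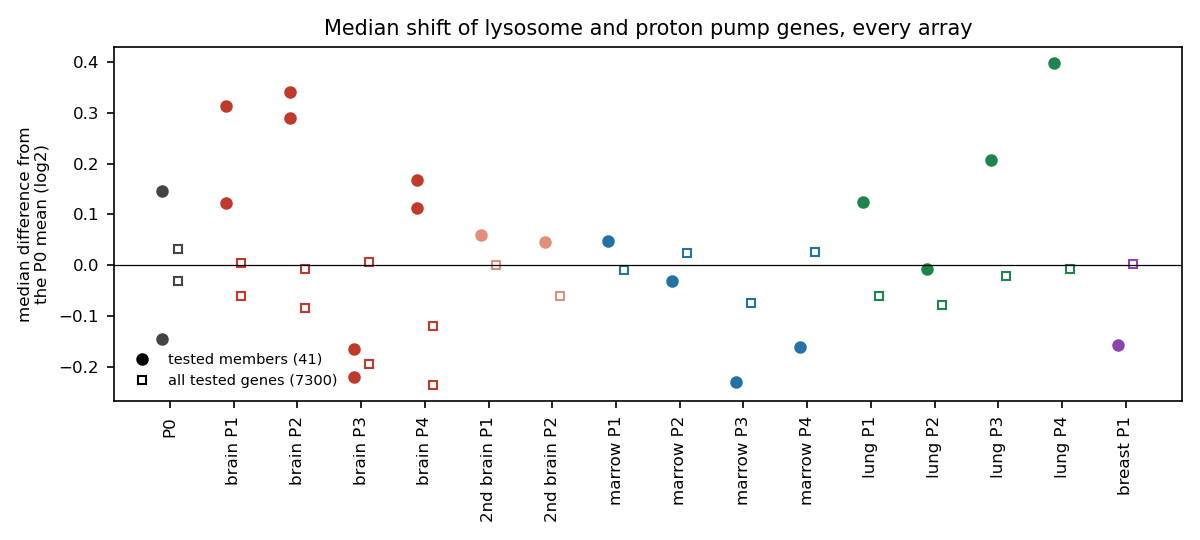
Median difference from the P0 mean (log2) on each array, over the 41 tested members (filled circles) and over all 7300 tested genes (open squares); colors mark P0, the tissues and the second brain experiment. The members reach 0.34 at brain P2 and 0.40 at lung P4, and the P0 arrays lie at -0.15 and 0.15.

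The 4 isoforms of the a subunit took different courses. Atp6v0a1 had levels of 8.85 and 9.36 at P0, 10.49 and 10.26 at brain P1, 10.84 and 10.60 at P2, 9.09 and 9.11 at P3, and 8.09 and 8.31 at P4. All 4 brain arrays of P1 and P2 stood above every one of the other 17 arrays. The change from P0 was 1.26 ± 0.22 (SE) at P1 (adjusted p = 0.015) and 1.61 ± 0.22 at P2 (adjusted p = 0.0035). Between early and late brain passages it fell by 1.89 on the log2 scale (adjusted p = 8.6e-05), and that call held whichever of the 8 brain arrays was left out. The P2 call also held without either array of its groups, whereas the P1 call was lost without the first P0 array or without either brain P1 array (changes of 1.01 to 1.52, adjusted p up to 0.1).

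Tcirg1 went the other way. It had 9.15 and 9.38 at P0, 8.16 and 7.86 at brain P1, 8.24 and 8.62 at P2, 8.82 and 8.87 at P3, and 9.97 and 9.62 at P4. The early brain arrays lay below both P0 arrays, and both P4 arrays lay above them. It fell by 1.26 at P1 (adjusted p = 0.014) and by 0.83 at P2 (adjusted p = 0.039), and was 1.10 ± 0.15 higher in brain P3 and P4 than in brain P1 and P2 (adjusted p = 0.0014). The rise between early and late passages held in each of 8 omissions. The calls against P0 did not: the P1 call was lost without either P0 array or the second brain P1 array (adjusted p up to 0.12), and the P2 call without any of its 4 arrays (adjusted p up to 0.2).

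Atp6v0a4 was dim at P0, with 6.06 and 6.35, and reached 8.01 and 7.76 at brain P1. It had 7.05 and 6.49 at P2, 5.26 and 5.27 at P3, and 7.10 and 6.90 at P4. The change at P1 was 1.68 ± 0.22 (adjusted p = 0.0049), and this call held without each of the 4 arrays in turn; as the gene passed the filter only through groups where it was high, its being among the tested members is not independent of that rise. It fell by 1.20 from early to late brain passages (adjusted p = 0.0012), with the P4 arrays inside the range of the P2 and P1 arrays and the P3 arrays below it. Bone marrow P1, at 7.27, and lung P1, at 7.65, were also high for this gene, against 5.56 at bone marrow P2 and 6.76 at lung P2.

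Atp6v0a2 had 9.44 and 9.84 at P0, and all other arrays lay between 9.13 and 9.87. Its change was 0.12 at brain P1 (95% interval -0.31 to 0.56) and -0.06 at P2 (-0.49 to 0.38), and it was called in no comparison. A weaker probe set of the same gene changed by -0.27 and -0.42 at those passages.

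**Figure D2:**
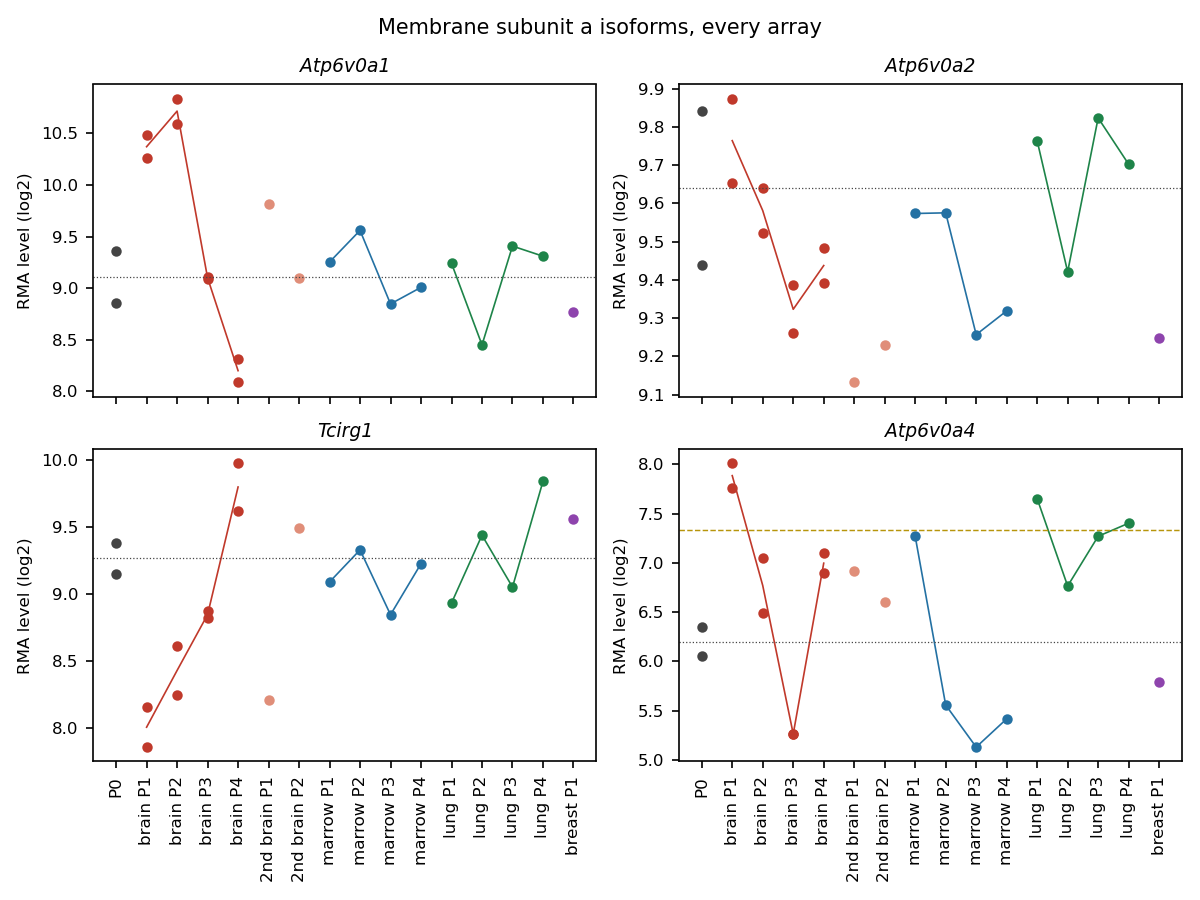
RMA level (log2) of the 4 genes for the a subunit on every array, with lines through the group means of a tissue, a dotted line at the P0 mean and a dashed line at the filter limit of 7.33 where it falls in range. Atp6v0a1 is high at brain P1 and P2 and lowest at brain P4, Tcirg1 is lowest at brain P1, and Atp6v0a2 stays between 9.13 and 9.87.

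Among the remaining V0 subunits, Atp6v0e2, a small membrane subunit, had 6.95 on both P0 arrays, 7.88 and 7.21 at brain P1, 8.31 and 7.82 at P2, 6.01 and 6.58 at P3, and 6.44 and 6.27 at P4. It rose by 1.12 ± 0.29 at P2 (adjusted p = 0.039), a call lost without any 1 of its 4 arrays (changes of 0.87 to 1.37, adjusted p up to 0.2), and fell by 1.48 from early to late brain passages (adjusted p = 0.0014), which held in every omission. Atp6v0d1, which ties the rotor to the membrane ring, lay at 10.10 to 10.22 on the early brain arrays, above all 17 other arrays. Its change was 0.50 at P1 (adjusted p = 0.11) and 0.56 at P2 (adjusted p = 0.052), and it fell by 0.65 from early to late brain passages (adjusted p = 0.0037). Atp6v0b, a subunit of the proton-carrying ring, lay at 9.08 to 9.52 on the early brain arrays, below all others, was called against P0 at neither passage (-0.83 and -0.58, adjusted p = 0.078 and 0.15) and rose by 0.75 between early and late brain passages (adjusted p = 0.011). Atp6v0e stayed between 9.54 and 10.42 and was called in no comparison.

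In the V1 sector the clearest change was in Atp6v1b2, the ATP-binding B subunit found in most tissues. It had 10.07 and 10.23 at P0, 11.10 and 11.06 at brain P1, 11.46 and 11.07 at P2, 10.11 and 10.07 at P3, and 10.32 and 10.35 at P4. It rose by 0.93 ± 0.18 at P1 (adjusted p = 0.025) and 1.11 ± 0.18 at P2 (adjusted p = 0.0077), and fell by 0.96 between early and late passages (adjusted p = 0.0013). The P1 call was lost without any 1 of its 4 arrays (changes of 0.85 to 1.01, adjusted p up to 0.14) and the P2 call without the first P0 array (adjusted p = 0.054). Its counterpart Atp6v1b1, the B isoform of kidney and inner ear, is not among the 47 but in a list of further pump subunits, and fell by 2.05 at P1 (adjusted p = 0.035) and by 1.94 at P2 (adjusted p = 0.026). Among the 3 tested genes of that list the lowest change was still -1.885 at brain P3 and -1.78 at P4. It was -1.65 for bone marrow P1 to P4, -0.76 for lung P1 to P4 and -3.25 for breast P1, none of them called. No gene of the list was called higher in late than in early brain passages.

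Atp6v1f, a small rotor subunit, had 9.02 and 9.31 at P0, 9.84 and 9.73 at brain P1, 10.33 and 9.83 at P2, 8.52 and 8.09 at P3, and 9.41 and 9.24 at P4. Its early brain arrays stood above all 17 others. The rise of 0.91 at P2 was called (adjusted p = 0.039) but lost without any 1 of the 4 arrays (adjusted p up to 0.21), while the fall of 1.12 between early and late brain passages (adjusted p = 0.0021) held in every omission. A dimmer probe set of this gene moved the same way (0.54 at P1, 1.21 at P2). Atp6v1h, the regulatory subunit, fell by 0.69 between early and late passages (adjusted p = 0.011). Atp6v1g1, of the stator, rose by 0.57 there (adjusted p = 0.019), a call lost in 5 of 8 omissions (adjusted p up to 0.065). The remaining V1 genes were called in no comparison: Atp6v1a, the subunit that splits ATP, lay between 9.44 and 10.50 on all arrays, Atp6v1c1, of the stator, between 8.66 and 9.37, and Atp6v1e1, also of the stator, between 8.16 and 9.44. Nor were Atp6v1d, a rotor subunit, and Atp6ap1, which helps to assemble the pump and lay between 10.54 and 11.20.

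Of the 6 membrane proteins outside the pump, the abundant ones were called in no comparison. Lamp1, a main glycoprotein of the lysosomal membrane, lay between 10.99 and 11.77 on all arrays, with a change of 0.05 at brain P1 (95% interval -0.38 to 0.47) and 0.25 at P2 (-0.18 to 0.67). Lamp2 lay between 10.83 and 11.33, with -0.09 (-0.44 to 0.26) and 0.06 (-0.29 to 0.41). The tetraspanin Cd63 lay between 11.47 and 12.29, with 0.23 (-0.22 to 0.69) and 0.15 (-0.31 to 0.60).

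Cd68, a member of the same glycoprotein family and a common marker of macrophages, had 6.03 and 5.99 at P0, 8.27 and 7.62 at brain P1, 8.03 and 8.48 at P2, 6.60 and 6.87 at P3, and 7.22 and 8.22 at P4. Its mean was 7.95 ± 0.46 at P1 and 6.01 ± 0.03 at P0 (SD, n = 2 each). It rose by 1.94 ± 0.34 at P1 (adjusted p = 0.017) and 2.25 ± 0.34 at P2 (adjusted p = 0.006); the P1 call was lost without either P0 array or the first brain P1 array (adjusted p up to 0.12), and the P2 call held in all 4 omissions. It, too, passed the filter only through groups where it was high. At P4 the change was 1.71 (adjusted p = 0.071). Of the 12 listed macrophage genes 11 were under the filter limit in every group, and Adgre1, Csf1r, Ptprc, Lyz2 and C1qa had group means of 3.61, 4.45, 3.89, 3.81 and 4.62 at brain P1 and 3.27, 4.77, 3.84, 4.09 and 4.55 at P0. Itgam, Tyrobp, Fcer1g, Aif1, C1qb and Mrc1 had 3.94, 4.86, 4.38, 4.42, 4.28 and 3.57 at brain P1. At P0 these had 3.69, 4.20, 4.75, 4.14, 3.87 and 3.43. The 11 lay between 3.52 (Adgre1) and 4.91 (Fcer1g) at brain P2. The gene above the limit was Cd14, with 10.94 at brain P1, 11.02 at brain P2 and 10.46 at P0. The sum of the list on the linear scale, set mostly by Cd14, ranged from 965.2 to 2273 over the groups, with 2172 at brain P1, 2273 at P2 and 1605 at P0. The part of such cells in the rise of Cd68 was not tested, and in these bulk cultures more cells of a type and more RNA per cell cannot be told apart.

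Mcoln1, a calcium channel of the lysosomal membrane, had 9.27 and 9.51 at P0, 9.75 and 9.58 at brain P1, 10.35 and 10.19 at P2, 9.08 and 9.38 at P3, and 9.84 and 9.80 at P4. Both P2 arrays stood above all other arrays. The rise at P2 was 0.88 ± 0.18 (adjusted p = 0.019), a call lost without the first P0 array or without either brain P2 array (changes of 0.76 to 1.00, adjusted p up to 0.11). Npc1, which moves cholesterol out of the lysosome, lay at 8.99 to 9.44 on the early brain arrays and at 8.56 and 8.77 at P0, a change of 0.73 at P1 (adjusted p = 0.067). Between early and late brain passages Mcoln1 fell by 0.44 (adjusted p = 0.038), Npc1 by 0.48 (adjusted p = 0.031) and Cd68 by 0.87 (adjusted p = 0.031), calls that were lost in 7, 6 and 5 of 8 omissions (adjusted p up to 0.12).

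Among 7 tested proteases, Lgmn changed most. This cysteine protease, which cuts after asparagine, had 8.73 and 9.35 at P0, 7.18 and 7.19 at brain P1, 7.47 and 8.30 at P2, 9.06 and 8.65 at P3, and 9.07 on both P4 arrays. The early brain arrays lay below all 17 others, and both P1 arrays were under the filter limit. It fell by 1.86 at P1 (adjusted p = 0.012) and 1.16 at P2 (adjusted p = 0.043), and rose by 1.43 between early and late brain passages (adjusted p = 0.0023). The last held in every omission; the P1 call was lost without the second P0 array or either brain P1 array (changes of -2.17 to -1.55, adjusted p up to 0.083) and the P2 call without either P0 array or the first brain P2 array (adjusted p up to 0.22).

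Ctsa, a carboxypeptidase that also shields neuraminidase and beta-galactosidase, had 9.60 and 9.93 at P0, 10.19 and 10.12 at brain P1, 10.64 on both P2 arrays, 9.37 and 9.50 at P3, and 10.01 and 9.97 at P4. It rose by 0.87 ± 0.17 at P2 (adjusted p = 0.015), a call lost without the first P0 array or either brain P2 array (adjusted p up to 0.096), and fell by 0.68 between early and late brain passages (adjusted p = 0.005). The abundant cathepsins were not called against P0 at either early passage. The change at brain P2 was 0.63 for Ctsb (95% interval 0.05 to 1.20), -0.22 for Ctsd (-0.65 to 0.22) and 0.41 for Ctsl (-0.11 to 0.93). Ctsl, the protease nearest to a call at P1, had 11.00 and 10.78 at brain P1 and 9.92 and 10.37 at P0 (0.75, adjusted p = 0.11). Ctsh fell by 0.52 between early and late passages (adjusted p = 0.032), a call lost in 7 of 8 omissions (adjusted p up to 0.1). Ctss, the cathepsin of antigen-presenting cells, lay between 3.91 and 4.66 on all arrays, at the floor, as did Ctsc (2.76 to 4.71), while Ctsz lay between 4.96 and 5.77. Tpp1, which removes tripeptides, lay between 8.53 and 9.86 and was called nowhere.

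None of the 5 tested glycosidases and none of the 5 lipid enzymes and binding proteins was called against P0 at any brain passage, and the changes at P2 ran from -0.40 (Gusb) to 0.96 (Gla, adjusted p = 0.11). Gaa, which breaks down glycogen, had 9.11 and 9.32 at P0, 9.56 and 9.16 at brain P1, 10.31 and 9.74 at P2, 8.60 and 8.59 at P3, and 9.10 and 8.49 at P4. It fell by 1.00 between early and late brain passages (adjusted p = 0.0069), and all 4 late arrays lay below all 4 early ones. Smpd1, the acid sphingomyelinase, fell by 0.57 (adjusted p = 0.028), a call lost in 5 of 8 omissions (adjusted p up to 0.1). Of the others, Gusb, the beta-glucuronidase, lay between 7.07 and 8.49 on all arrays, Glb1, the beta-galactosidase, between 7.79 and 8.72, and the neuraminidase Neu1 between 6.96 and 7.77. Hexa, of the beta-hexosaminidase, lay at 3.78 to 4.83 and was not tested. Asah1, the acid ceramidase, lay between 9.29 and 10.22, and Npc2, the cholesterol-binding partner of Npc1, between 8.40 and 9.35. Psap and Grn, the precursors of the saposins and granulins, lay at 11.59 to 12.30 and 11.00 to 12.08 on all arrays.

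Sqstm1 encodes p62, which carries ubiquitin-tagged cargo into autophagosomes and is broken down in the lysosome. It had 10.48 and 11.07 at P0, 11.45 and 11.11 at brain P1, 12.55 and 12.05 at P2, 10.86 and 10.68 at P3, and 11.00 and 11.12 at P4. The second P1 array lay just above the second P0 array, and both P2 arrays stood clear of it. The rise at P2 was 1.52 ± 0.26 (adjusted p = 0.0086), a call lost without the first P0 array or the first brain P2 array (changes down to 1.22, adjusted p up to 0.059). In the second brain experiment Sqstm1 had 12.62 at P1, the highest level of all 21 arrays, and 11.33 at P2. Against P0 that P1 array was 1.84 ± 0.31 higher (adjusted p = 0.033), the only member called there, and the call was lost without either P0 array (adjusted p up to 0.085). Tfeb, too dim to test, lay between 6.22 and 7.14 on all arrays, with 6.59 and 6.52 at brain P1, 7.14 and 7.03 at P2, and 6.87 and 6.78 at P0.

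**Figure D3:**
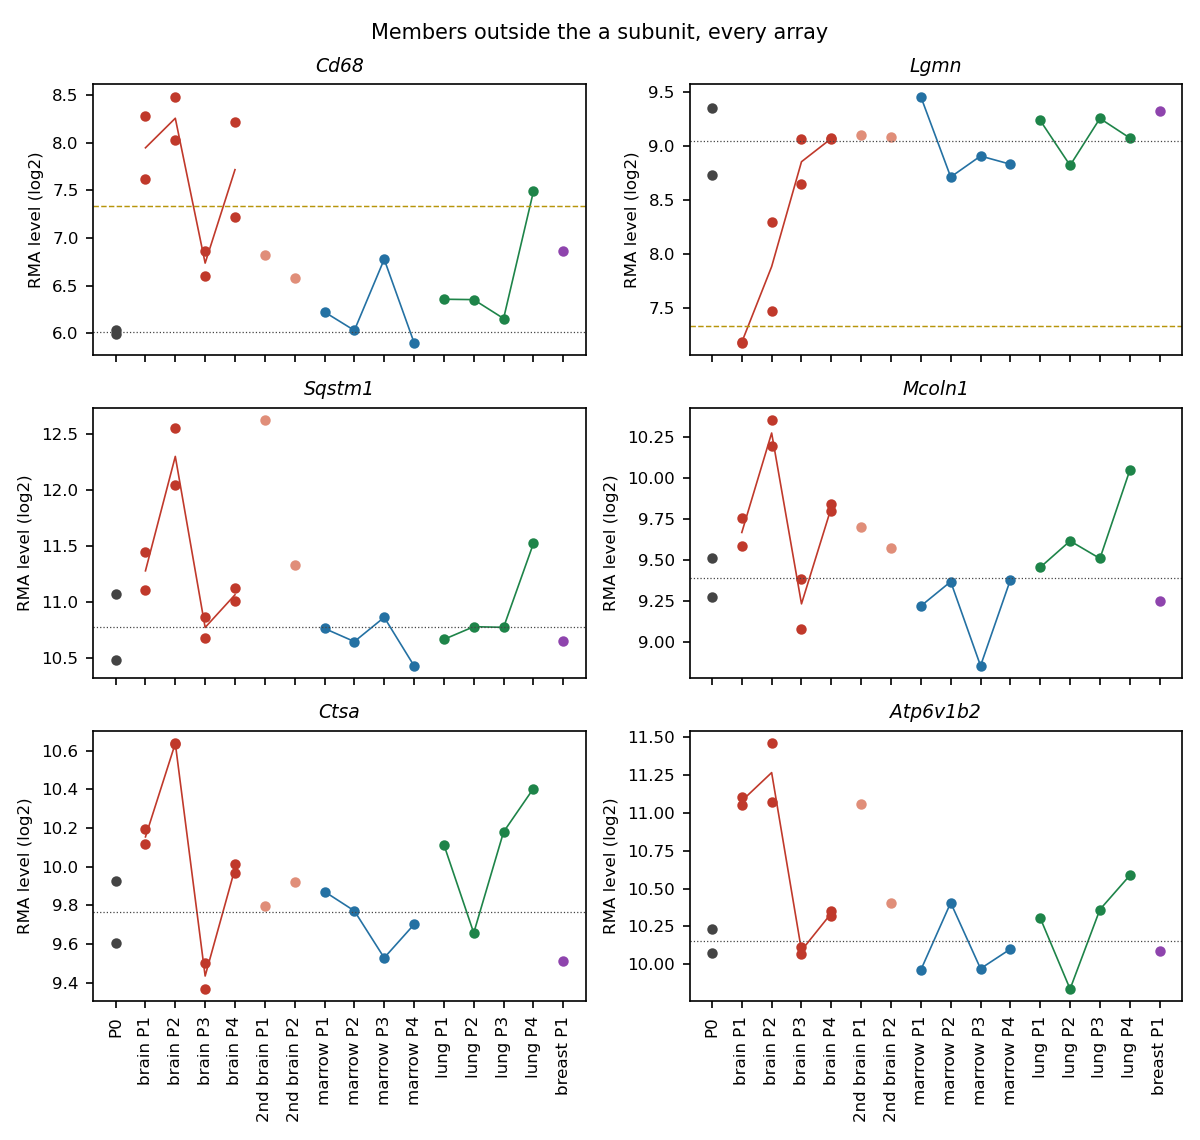
RMA level (log2) of 6 members outside the a subunit on every array; dotted line, P0 mean; dashed line, filter limit of 7.33. Cd68, Sqstm1, Mcoln1, Ctsa and Atp6v1b2 are high at brain P2, Lgmn is low at brain P1 and P2 of the first experiment only, and Sqstm1 reaches 12.62 at P1 of the second experiment.

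The other members of the second brain experiment were measured on 1 array a passage. The paper matched both of its passages to later points of the first series and reports a faster adaptation. Equal passage numbers in the 2 experiments may therefore not mean equal stages. At its P1, 1 member rose and none fell, where 0.945% of all tested genes were called higher and 0.603% lower. These were 69 and 44 genes, and with array medians set equal they were 70 and 24. Atp6v1b2, at 11.06, and Tcirg1, at 8.21, lay within the range of the early arrays of the first experiment, but neither passed the test against P0 (0.91 and -1.06, adjusted p = 0.093 and 0.094). Atp6v0a1, at 9.82, lay between the P0 arrays and the early arrays of the first experiment, and Lgmn, at 9.10, lay between the P0 arrays. Of the other members called at P1 or P2 of the first experiment, Mcoln1, at 9.70, and Atp6v0a4, at 6.92, lay within its early range. Cd68, at 6.82, and Atp6v1f, at 9.36, lay above both P0 arrays but below that range. Ctsa, at 9.80, lay between the P0 arrays, and Atp6v0e2, at 6.71, below both. At its P2 no member was called, with 0% of genes called higher and 0% lower, and 1 member at an unadjusted p under 0.05. Tcirg1, at 9.49, was above both P0 arrays at this P2, and Atp6v0a1, at 9.10, lay between them. With both experiments in 1 model, each brain experiment was a random block and the P0 pair a block of its own. No member was then called at P1 or P2, nor was any other gene (limma), so this setting cannot set the members apart from other genes. The lowest adjusted p among the members called in the first experiment was then 0.67, and 7 members at P1 and 8 at P2 had an unadjusted p under 0.05.

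Comparisons that left out the P0 arrays gave more calls. Between brain P3 and P4 and brain P1 and P2, 4 of the 41 tested members rose and 15 fell, where 10.9% of all tested genes were higher and 16.6% lower. The 4 that rose were Lgmn, Tcirg1, Atp6v0b and Atp6v1g1. Of the pump subunits 7 of 17 fell, and of the other members 8 of 24. Among those that fell, Atp6v0a4, Atp6v0e2 and Cd68 passed the filter only through groups where they were higher. The median change over the tested members was -0.31, against -0.10 over all tested genes. Of the 19 calls, 13 held without each of the 8 brain arrays in turn. The other 6 (Atp6v1g1, Cd68, Ctsh, Npc1, Mcoln1 and Smpd1) were near the threshold: 6 calls were lost without the first brain P1 array, 5 without the first P2 array, 5 without the second P3 array, 3 without the first P3 array, and 4 without each of the remaining brain arrays.

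Early brain cells of the first experiment were also set against early bone marrow and lung cells, 4 arrays of P1 and P2 on each side. The second brain experiment was left out, so that each tissue stands for 1 adaptation, and p measures the spread between cultures. Here 12 members were higher in brain and 5 lower, where 9.84% of all tested genes were higher and 13.7% lower. Atp6v0a1 had a mean of 10.54 on the early brain arrays and 9.13 on the early bone marrow and lung arrays, a difference of 1.42 ± 0.15 (adjusted p = 0.00053). Cd68 was 1.86 ± 0.24 higher (adjusted p = 0.0012), Atp6v1f 1.13 ± 0.16 higher (adjusted p = 0.0019), Atp6v0e2 1.12 ± 0.20 higher (adjusted p = 0.0055), Sqstm1 1.07 ± 0.18 higher (adjusted p = 0.0041) and Atp6v1b2 1.05 ± 0.13 higher (adjusted p = 0.00093). Lgmn was lower in brain, by -1.52 ± 0.22 (adjusted p = 0.0017), and so was Tcirg1, by -0.98 ± 0.15 (adjusted p = 0.0026). Cd68 and Atp6v0e2 passed the filter only through groups where they were higher, as did Atp6v0a4 among the smaller calls. For Atp6v0e2 the arrays overlapped, with 7.53 on lung P1 and 7.21 on the second brain P1 array. These 8 calls, from Atp6v0a1 to Tcirg1, held without each of the 8 arrays in turn. The other 9 were smaller: Ctsh was higher by 0.59, Mcoln1 by 0.56, Ctsa by 0.54, Atp6v0a4 by 0.52, Npc1 by 0.45 and Atp6v0d1 by 0.42, and the changes of Gusb, Atp6v0b and Atp6v1g1 were -0.68, -0.72 and -0.59. Of the 17 calls, 7 were lost without either brain P1 array, 6 without the first and 5 without the second P2 array, 4 without bone marrow P2, 2 without bone marrow P1 or without lung P2, and 1 without lung P1. Atp6v0a4 moved most, to 0.10 (adjusted p = 0.75) without bone marrow P2. Both comparisons use the early brain arrays, so that a member high or low there moves in both.

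**Figure D4:**
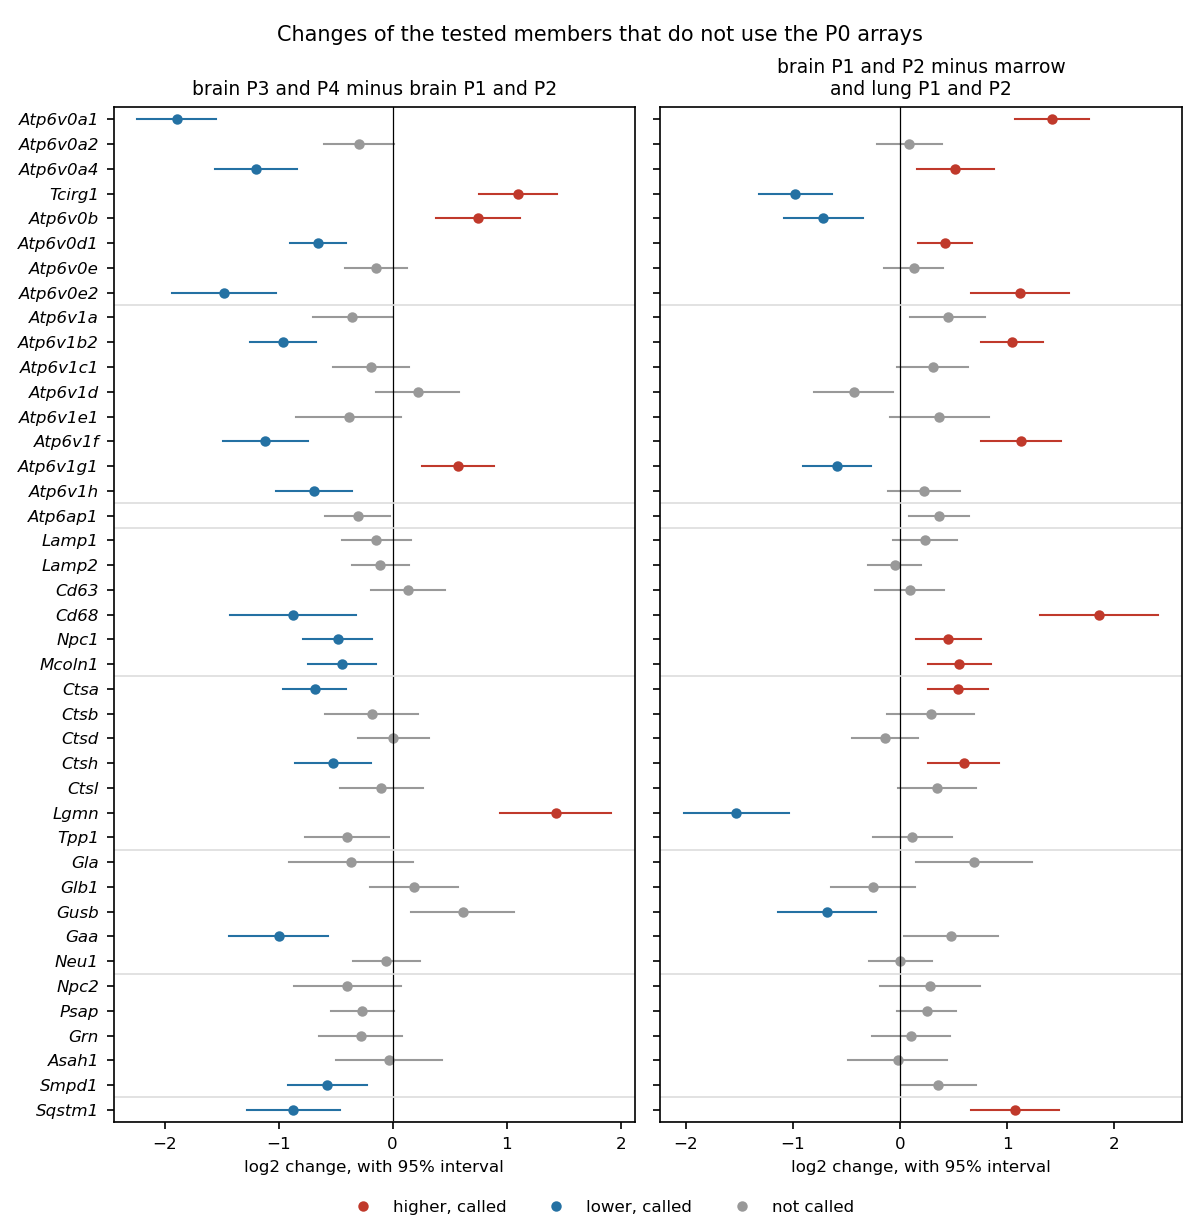
Log2 change (point) with its 95% interval (bar) of the 41 tested members, by role from the V0 subunits at the top to Sqstm1 at the bottom: late against early brain passages at left, early brain against early bone marrow and lung at right; red, called higher; blue, called lower; gray, not called. Atp6v0a1 lies at -1.89 and 1.42, Lgmn at 1.43 and -1.52.

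In bone marrow and lung cells no member was called against P0. For the mean of bone marrow P1 to P4, 0.11% of all tested genes were higher and 0.26% lower, and 3 members had an unadjusted p under 0.05 (limma). The nearest to a call was Atp6v0e2, at 6.65, 5.95, 5.91 and 5.88 from P1 to P4 against 6.95 on both P0 arrays (-0.85, adjusted p = 0.35). For lung P1 to P4, 0.0685% of genes were higher and 0.137% lower, and 1 member had an unadjusted p under 0.05. That was Atp6v0a4, at 7.65, 6.76, 7.27 and 7.40 from P1 to P4 against 6.06 and 6.35 at P0 (1.07, adjusted p = 0.13). The member median on lung P4 was 0.40, the highest of the 21 arrays, and Cd68 reached 7.49, Sqstm1 11.52, Mcoln1 10.05 and Ctsa 10.40 on that array, against P0 means of 6.01, 10.78, 9.39 and 9.76; 1 array allows no test of lung P4 within its own group. On breast tissue at P1, where 0.0548% of genes were higher and 0.205% lower, no member was called and 1 had an unadjusted p under 0.05 (Ctsh, -0.79, adjusted p = 0.44).

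Further genes of the lysosome, outside the 47, were read as lists. Of 12 tested membrane proteins 3 rose at brain P2 and none fell, where 4.9% of all tested genes were higher and 8.37% lower: Ctns, the cystine exporter, by 1.11 (adjusted p = 0.046), Cln3 by 1.02 (adjusted p = 0.028) and Scarb2, a receptor that sorts glucocerebrosidase, by 0.95 (adjusted p = 0.03). None was called at P1. Of 20 tested hydrolases and activators, 1 rose at P2, the acid phosphatase Acp2 (0.90, adjusted p = 0.032), and 2 fell, the cathepsin Ctso by 1.43 and the thioesterase Ppt1 by 1.14 (adjusted p = 0.0083). Ctso fell by 2.20 at P1 as well (adjusted p = 0.0026). Against early bone marrow and lung, 6 of these 20 hydrolases were lower in early brain cells and 1 higher, where 13.7% of all tested genes were lower and 9.84% higher. Of the 12 membrane proteins 3 were higher there and none lower. The lists were not tested against each other or against all genes, and the chromosome shifts described below were not taken off their values.

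Of 14 tested genes for sorting to the lysosome, 1 fell at brain P2, where 8.37% of all tested genes did. This was Gnptab, which starts the mannose phosphate tag (-0.94, adjusted p = 0.015). Of the same list 4 were lower in late than in early brain passages, where 16.6% of all tested genes were, led by the tag's receptor Igf2r (-1.07, adjusted p = 0.0014). Of 12 tested genes of the TFEB family, Ragulator, the Rag GTPases and mTORC1, 1 rose at P2, where 4.9% of all tested genes did. It was Flcn, a regulator of the Rag GTPases (0.92, adjusted p = 0.028), and no other was called at P1 or P2. Of 16 tested autophagy genes none was called at brain P1 or P2, and 3 were lower in late than in early brain passages, a share near that of all tested genes: Tax1bp1, Ulk1 and Becn1 (-0.69, -0.72 and -0.47).

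The genes of some chromosomes shifted together in early brain cells, and the shift of chromosome 4 was close to the change of 2 members on it. The 444 other tested genes of chromosome 4 had a median difference of -0.62 between early brain and early bone marrow and lung cells, and of 0.51 between late and early brain passages. Atp6v0b and Atp6v1g1, both on chromosome 4, changed by -0.72 and -0.59 in the first of these comparisons and by 0.75 and 0.57 in the second. With chromosome medians taken off they were called in neither (-0.10 and 0.04, adjusted p = 0.72 and 0.91; 0.22 and 0.04, adjusted p = 0.34 and 0.89). The other calls lost in this way were, late against early in brain, Atp6v1h, Cd68, Ctsh, Npc1, Mcoln1 and Smpd1 (adjusted p of 0.057 to 0.15), and, between the early tissues, Atp6v0a4, Atp6v0d1 and Npc1 (0.056 to 0.089). Lgmn lies on chromosome 12, where the median shift was -0.24 at brain P1, and Tcirg1 on chromosome 19, at -0.29. With the medians taken off, Lgmn still fell at P1 by 1.64 (adjusted p = 0.017) and Tcirg1 by 0.97 (adjusted p = 0.039), whereas their P2 changes of -0.97 and -0.52 were no longer called (adjusted p = 0.065 and 0.16). For Atp6v0a1, on chromosome 11 with a median of 0.05, the P1 change was then 1.22. Chromosome 14, which holds Ctsb, had a median of -0.35 at brain P2, where Ctsb changed by 0.63 before any median was taken off. Between the early tissues its median was -0.57.

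The promoters of the members were searched for the E-box core CACGTG, which reads the same on both strands, and for TCACGTG on either strand, the longer form bound by the TFEB family, which contains the core. The windows ran from 250 bases before to 50 after each start site (RefSeq, GRCm38.p6), and 38 of the 47 members had an entry. The core was present in 13 of them (34.2%), against 9.5% of 15613 genes of the array with an entry and 7.2% of all 32851 windows. The longer form was present in 12 (31.6%), against 5.3% of those genes and 3.8% of all windows. Of the 8 members with an entry that rose at brain P1 or P2, 2 held the core (Mcoln1 and Ctsa), and of the 2 that fell, Lgmn did. Lamp1 held 4 cores and was called in no comparison. The windows of Atp6v0a1, Atp6v0a4, Tcirg1, Cd68, Sqstm1, Atp6v1f and Atp6v0e2 held none. A match is a run of letters and not evidence of binding.

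The 120 bases before the start site are shown for 4 members, with the E-box cores in capitals. Lamp1, called in no comparison, is set beside Mcoln1 and Ctsa, which rose at brain P2, and Atp6v0b, which was low in early brain cells. The change of Atp6v0b was close to the median shift of chromosome 4, as given above. They lie at chr8:13159041-13159160 (plus strand), chr8:3500399-3500518 (plus strand), chr2:164833653-164833772 (plus strand) and chr4:117887330-117887449 (minus strand) of GRCm38.p6, in the order of the lines, each read on the strand of its gene.
Lamp1: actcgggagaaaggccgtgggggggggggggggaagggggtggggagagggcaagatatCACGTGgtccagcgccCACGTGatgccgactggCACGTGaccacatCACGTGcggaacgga
Mcoln1: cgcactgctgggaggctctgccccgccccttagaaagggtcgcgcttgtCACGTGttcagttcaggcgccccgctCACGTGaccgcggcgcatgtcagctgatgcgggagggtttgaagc
Ctsa: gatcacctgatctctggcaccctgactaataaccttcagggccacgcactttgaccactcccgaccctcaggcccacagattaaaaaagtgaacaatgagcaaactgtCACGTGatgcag
Atp6v0b: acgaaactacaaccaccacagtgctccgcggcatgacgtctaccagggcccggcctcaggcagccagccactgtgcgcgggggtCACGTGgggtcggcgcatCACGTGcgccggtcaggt

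**Figure D5:**
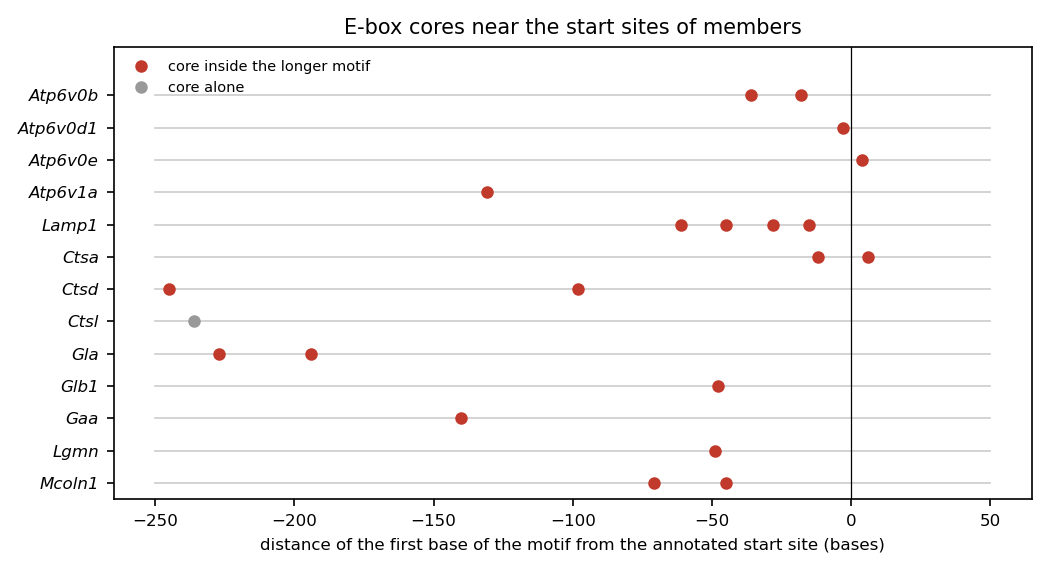
Distance (bases) of the first base of each E-box core from the annotated start site, at 0, in the 13 members that hold one in their window; red, core inside the longer motif; gray, core alone (Ctsl). Lamp1 has 4 cores within 61 bases before its start, and Mcoln1 has 2.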

How the data were processed

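The Mouse Gene 1.0 ST array of Affymetrix read the RNA of 21 cultures, 1 array a culture, in 16 groups named from the labels. The authors deposited log2 intensities, 1 per probe set and array, from RMA (background correction, quantile normalization between arrays, median polish) in the Expression Console, and these were used unchanged. Symbols came from the array's platform annotation. As many probe sets as the study kept were retained, by largest group mean, the lowest being 7.33. A group-means model was fitted in limma 3.58.1 (R 4.3.3), with 5 residual and 3.9 prior degrees of freedom for the moderated variances, and p was adjusted by Benjamini-Hochberg over the kept probe sets. A lone array is assumed to vary like the pairs. The number of arrays limits the precision, which is given as standard errors or 95% intervals. The fit was tested on simulated data. Figures used Python 3.11.15 and matplotlib 3.10.9.

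The members and lists were chosen with earlier results of these data known. Named with values on every array were the a subunit isoforms, the members called at brain P1 or P2 or between early and late brain passages (up to 12, lowest p), and Lamp1, Lamp2, Cd63, Cd68, Ctsb, Ctsd, Ctsl, Ctss, Tfeb, Sqstm1 and Mcoln1, some of which are given by their range; lists name up to 4 genes. Alternatives were no filter or a stricter one of 7000 probe sets, cyclic loess, array medians set equal, robust estimation with a trend in the variance, averaging all probe sets of a gene, chromosome medians subtracted, a 2-fold limit beside the adjusted p, each array of a pair left out, a replicate block, both brain experiments in 1 model, and the 4 passages of bone marrow or lung as 4 samples. Leaving out the 5 arrays with the highest floor, or single bone marrow and lung arrays, was added after the data had been seen.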

Additional observations from a re-analysis of the deposited data

Results flagged for a closer look

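Members whose change differed between tissues or between times, by a test of that difference, are listed here with the log2 difference. Both comparisons use the first brain experiment only, with 1 adaptation per tissue, so that a difference between tissues and one between adaptations cannot be told apart. The values of Atp6v0b and Atp6v1g1 were close to the median shift of chromosome 4, as given above. Brain cells at P1 and P2 against bone marrow and lung cells at P1 and P2 differed in 17 members: higher in brain were Atp6v0a1 (1.42), Atp6v0a4 (0.52), Atp6v0d1 (0.42), Atp6v0e2 (1.12), Atp6v1b2 (1.05), Atp6v1f (1.13), Cd68 (1.86), Ctsa (0.54), Ctsh (0.59), Npc1 (0.45), Mcoln1 (0.56) and Sqstm1 (1.07), and lower were Tcirg1 (-0.98), Atp6v0b (-0.72), Atp6v1g1 (-0.59), Gusb (-0.68) and Lgmn (-1.52).

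Brain cells at P3 and P4 against brain cells at P1 and P2 differed in 19 members: higher late were Tcirg1 (1.10), Atp6v0b (0.75), Atp6v1g1 (0.57) and Lgmn (1.43), and lower late were Atp6v0a1 (-1.89), Atp6v0a4 (-1.20), Atp6v0d1 (-0.65), Atp6v0e2 (-1.48), Atp6v1b2 (-0.96), Atp6v1f (-1.12), Atp6v1h (-0.69), Cd68 (-0.87), Ctsa (-0.68), Ctsh (-0.52), Gaa (fell by 1.00), Npc1 (-0.48), Mcoln1 (-0.44), Smpd1 (-0.57) and Sqstm1 (-0.87). No group held 4 or more arrays, so single arrays could not be tested as outliers.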

How the results depend on the processing

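The counts of called members were 6 at brain P1, 10 at brain P2, 19 between late and early brain passages, 17 between early brain and early bone marrow and lung, and 1 at P1 of the second experiment. They stayed within 1.5 times these counts with cyclic loess, equal array medians, a variance trend, the mean over probe sets and the stricter filter. Equal array medians moved the median of all genes at brain P4 to -0.30, against -0.19. Without a filter, which adjusts over all probe sets, they were 0, 1, 8, 8 and 0. With a 2-fold limit they were 5, 6, 6, 7 and 1. With chromosome medians subtracted they were 6, 9, 12, 13 and 1, of which 6, 8, 11, 12 and 1 were among the original calls, and Atp6v1g1 reversed to 0.0353 (adjusted p = 0.91) between early brain and early bone marrow and lung. With both brain experiments in 1 model the counts at brain P1 and P2 were 0 and 0, as they were for all tested genes. With the 5 arrays of highest floor left out, which leaves each brain passage with 1 array, they were 0, 0, 1, 2 and 0.

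Leaving out 1 array at a time gave 2 to 3 at brain P1, 2 to 6 at brain P2, 14 to 16 between late and early passages, 10 to 16 between the early tissues, 0 at P1 of the second experiment, and 0 to 1 at brain P4 (Cd68 without the first brain P4 array). The counts of 0 in the remaining comparisons did not change in any alternative. The differences between second and first arrays correlated at 0.01 to 0.36 between pairs, over 0.1 in 7 of 10 comparisons but not in all, and the labels name no shared batch, so the arrays were not treated as paired. With the array number as a replicate block, the counts were 7 at brain P1, 11 at brain P2 and 20 between late and early passages, and no call was lost. With 1 or 2 arrays a group, changes well under 2-fold against P0 are poorly resolved, and members near the floor have only a rough level.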
